A study of Equus caballus with 68 samples.

Results

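Scavenger receptors are the surface and lysosomal proteins with which macrophages take up modified lipoproteins, debris, microbes, glycoproteins and free hemoglobin. They belong to unrelated protein families that share this function, among them the collagen-like class A receptors, the class B receptors that handle lipids, and receptors built from cysteine-rich or lectin domains. In the joint they are known from the macrophages of the synovial lining, and several of them are used as markers of macrophage maturation. Their transcripts were followed here for 9 receptors chosen by symbol, CD163, MRC1, MSR1, MARCO, CD36, CD68, SCARB1, SCARB2 and COLEC12, out of 24065 genes with a value above 0. Each symbol was on 1 entry of the table, and all 9 genes passed the filter on low values and were among the 14570 genes tested. MARCO passed it through its cultured libraries, as its level before culture lay near single reads.

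The libraries came from bone marrow mononuclear cells (BMNC) of 8 Thoroughbred horses aged 3 to 9 years, 6 geldings and 2 mares. Cells were sequenced uncultured (BMNC 0 h, n = 8) or after culture in undiluted synovial fluid of the same horse, either normal fluid (SF) or inflamed fluid (ISF) drawn from a joint injected with lipopolysaccharide. Cultures were harvested at 4 times, 48 h and 10 d with 7 horses per fluid and 96 h and 6 d with all 8, and each culture gave 1 library. Moon had no library at 48 h and Flash none at 10 d, so that group levels at these times cover other sets of horses. The fluids were taken from different joints of the horse, so that the joint and the inflammation cannot be told apart, and the starting population is a mixture of marrow cells rather than purified monocytes.

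Values are GeTMM, a unit per gene length with TMM scaling of the libraries, so that levels can be set side by side between genes. A library held 15.7 to 36.0 M reads on genes (median 22.3 M), and 1 read on a gene of 1 kilobase was worth 0.0337 to 0.0979 GeTMM. The SF library of Moon at 6 d stood apart, with a GeTMM sum of 2321940 against 817795 to 1458340 in the other libraries. The ISF libraries labelled Dealings and Dreamer at 96 h each resembled the horse on the other's label most (r = 0.938 and 0.922), whereas the other 66 libraries lay closest to their own. The called differences between the fluids that are given with a value and rest on these libraries are given with and without them.

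All 9 receptors had a higher mean after 10 d in either fluid than before culture, while the order of the receptors changed with culture. At 0 h CD163 was the highest (95.96 ± 25.76 GeTMM, SD, n = 8), followed by CD68 (80.94 ± 11.50), SCARB2 (45.97 ± 6.50), SCARB1 (42.1 ± 9.13) and CD36 (28.47 ± 9.29). COLEC12, MSR1 and MRC1 were between 4.60 and 5.39, and MARCO was at 0.38 ± 0.61. From 48 h on, CD68 led in each of the 8 culture groups. The lowest place was taken by COLEC12 in 7 of the 8 culture groups and by MARCO in SF at 10 d. In ISF at 10 d the order ran CD68, CD36, MSR1, CD163, SCARB2, MARCO, SCARB1, MRC1 and COLEC12, with MSR1 in the third place that CD163 held in SF. In bulk RNA, fewer cells of a type and less RNA per cell cannot be told apart, and this holds for every level given here.

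**Figure D1:**
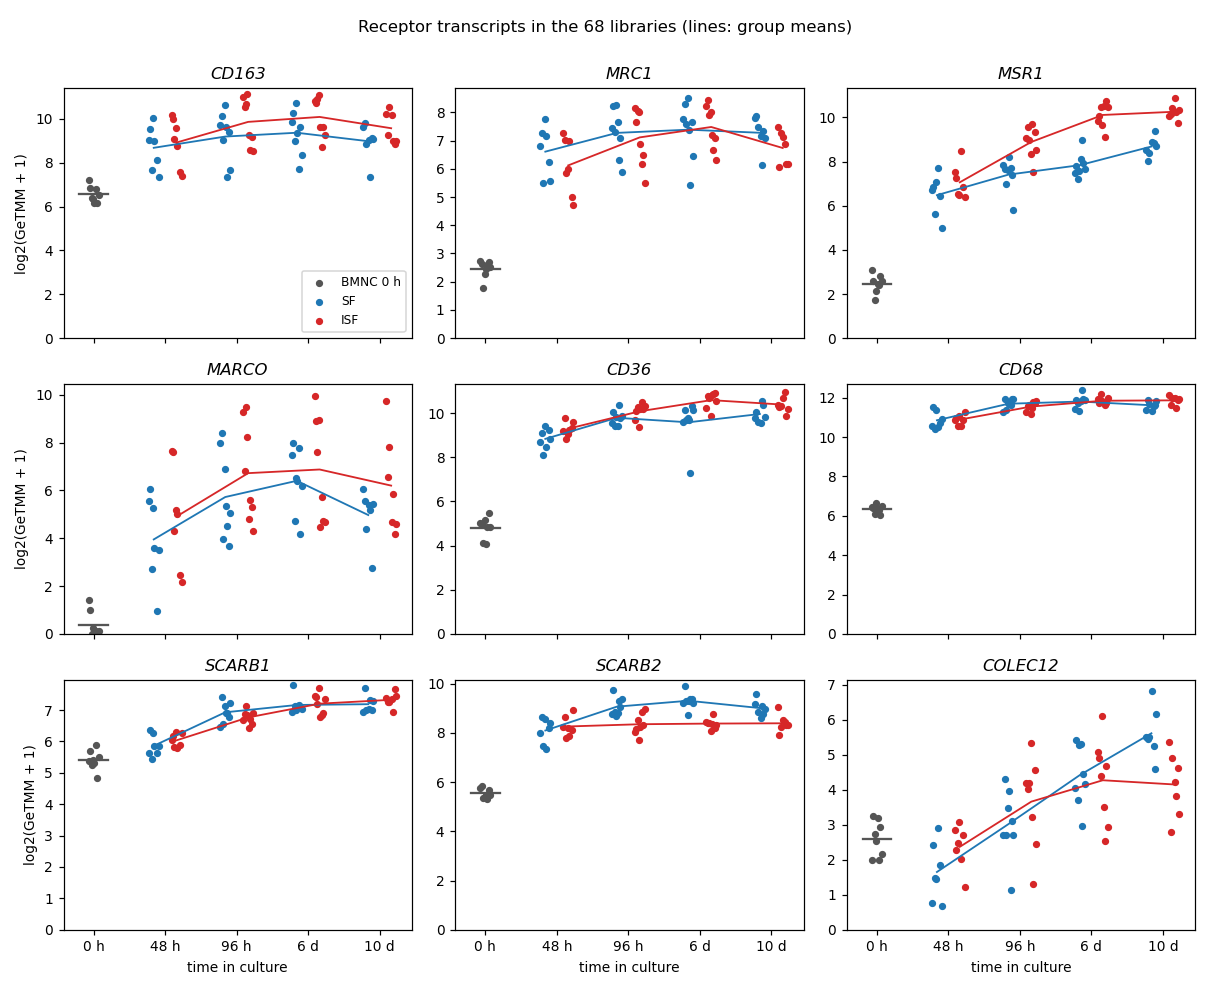
Level of each receptor as log2(GeTMM + 1) in the 68 libraries, with 1 point per library, against time in culture (gray, BMNC 0 h; blue, SF; red, ISF; lines, group means). The libraries of MSR1 do not overlap between the fluids at 6 and 10 d, SCARB2 stays near its level of 48 h in ISF but not in SF, and the points of MARCO span the widest range within groups.

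The cultures were checked against markers of macrophages and of the other cells that marrow holds. Of the 11 genes of a macrophage list, 10 were in the table (CD14 on 2 entries), and their mean log2(GeTMM + 1) was 4.32 ± 0.31 at 0 h and 7.91 ± 0.35 in SF and 7.74 ± 0.20 in ISF at 10 d. Erythroid markers (5 of 6 found) went from 5.05 ± 1.31 at 0 h to 0.30 ± 0.13 in SF and 0.36 ± 0.10 in ISF. Neutrophil precursor markers (6 of 8 found) went from 10.17 ± 0.36 to 3.98 ± 2.18 in SF and 1.91 ± 1.06 in ISF. Of the 11 macrophage entries, 10 in SF and 8 in ISF were called higher from 0 h to 10 d (limma, 34.7% and 36.1% of all genes). C1QB and C1QC were called lower over the first 48 h in both fluids. The rise of the receptors thus ran beside a rise of macrophage markers as a mean and a decline of marrow precursor markers. The part of the cell mixture in the rise of the receptors was not tested.

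MARCO is left out of the counts from 0 h, since it could pass the filter only where it was high. Of the other 8 receptors, 7 rose over the first 48 h in ISF (limma, FDR under 0.05), where 25.3% of all genes tested were called higher. In SF the count was likewise 7 of 8, where 22.3% of genes were called higher. The exception in both fluids was COLEC12. The median log2 change of the 8 receptors was 3.19 in ISF and 3.28 in SF, against -0.03 and -0.01 over all genes tested. For CD163, MRC1, MSR1, CD36, CD68 and SCARB2 this change was larger than that from 48 to 96 h in both fluids, and for SCARB1 and COLEC12 it was smaller. All cultured libraries at 48 h lay above all libraries at 0 h for CD163, MRC1, MSR1, CD36, CD68 and SCARB2 in both fluids. How many of all genes tested were separated in this way was not counted, so this is a description of each receptor only.

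The class A receptors carry a collagen-like stalk and bind polyanionic ligands such as acetylated lipoproteins and bacterial surfaces. MSR1, the macrophage scavenger receptor that gave the class its name, ranged from 2.31 to 7.40 GeTMM at 0 h (median 4.71). In SF its median was 102.6 (30.5 to 211.1) at 48 h, 200.4 (54.9 to 294.5) at 96 h, 212.2 (145.2 to 500.6) at 6 d and 419.8 (259.4 to 677.9) at 10 d. In ISF it was 113.7 (82.0 to 351.7), 526.1 (182.0 to 841.7), 1254 (547.9 to 1725) and 1198 (856.0 to 1861). The SF libraries at 10 d thus lay within the range of the ISF libraries at 96 h, and from 6 d on the ranges of the fluids did not overlap.

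The log2 difference of MSR1 between ISF and SF was 0.58 ± 0.33 (SE) at 48 h (limma FDR = 0.43, higher in 6 of 7 horses), 1.48 ± 0.31 at 96 h (FDR = 0.00051, 7 of 8 horses), 2.27 ± 0.31 at 6 d (FDR = 3.79e-08, 8 of 8 horses) and 1.58 ± 0.33 at 10 d (FDR = 0.000248, 7 of 7 horses). MSR1 was the only receptor higher in ISF at 3 of the 4 times, and no alternative processing run here took those 3 calls away. Without the libraries labelled Dealings and Dreamer the difference at 96 h was 1.35 (FDR = 0.00615), and without the SF library of Moon that at 6 d was 2.44 (FDR = 8.29e-09). The SF library of Moon at 6 d was the highest of its group at 500.6, and the ISF library of the same horse the lowest of its group at 547.9. The change of this difference from 48 h to 10 d was tested as an interaction and did not pass (0.99 ± 0.46, limma FDR = 0.256). Its change from 48 h to 6 d, the time of the largest difference, was not tested.

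Over time MSR1 rose further from 48 to 96 h in both fluids (ISF 1.83, limma FDR = 1.67e-05, SF 0.93, FDR = 0.0216) and again from 96 h to 6 d in ISF (1.22, FDR = 0.00838, higher in 8 of 8 horses). The corresponding change in SF was 0.43 (FDR = 0.479). The rise in SF from 48 to 96 h was lost without Catnip (FDR = 0.06), Dreamer (0.0737) or Ollie (0.0519) and when only these groups were fitted (0.076). From 0 h to 10 d its log2 change was 7.78 ± 0.32 in ISF and 6.21 ± 0.32 in SF, the highest of the 9 receptors in each fluid.

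MARCO, a class A receptor of bacteria and particles known from tissue macrophages of lung, spleen and lymph node, was barely present before culture. It had 0 to 39 reads per library at 0 h, with 0 reads in Dreamer and Ollie, where 3 reads correspond to 0.119 and 0.158 GeTMM. In culture its median in SF was 11.1 (0.95 to 66.3) at 48 h, 35.7 (11.8 to 335.7) at 96 h, 86.8 (17.0 to 249.2) at 6 d and 41.5 (5.85 to 65.5) at 10 d. In ISF it was 31.7 (3.51 to 199.0), 79.1 (18.7 to 710.4), 123.0 (20.9 to 987.0) and 57.5 (17.4 to 854.7). The range within a group was wider than the distance between the fluids at every time.

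MARCO differed by 0.96 ± 0.91, 1.00 ± 0.85, 0.47 ± 0.85 and 1.23 ± 0.91 on the log2 scale between ISF and SF from 48 h to 10 d, and none of these passed (limma FDR = 0.371 to 0.726). The 95% interval at 10 d ran from -0.59 to 3.06. From 0 h to 10 d the mean of MARCO moved by 5.83 on the log2 scale in ISF and 4.60 in SF, for which no test is given. These values rest on few reads at 0 h and depend on the pseudocount.

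COLEC12 is a collectin with a class A type stalk, known mainly from vascular endothelium and stromal cells. It was low at 48 h and climbed late. At 0 h its median was 5.23 (3.00 to 8.51) GeTMM. In SF the medians were 1.80 (0.59 to 6.54), 6.56 (1.21 to 19.0), 19.0 (6.82 to 42.2) and 44.6 (23.2 to 112.8) at 48 h, 96 h, 6 d and 10 d. In ISF they were 4.52 (1.32 to 7.38), 16.3 (1.46 to 39.8), 22.4 (4.76 to 68.2) and 17.6 (5.99 to 40.1). The SF libraries went on climbing to 10 d, while the ISF libraries covered much the same range at 6 and 10 d. The highest ISF library at 6 d (68.2) was that of Flash, which had none at 10 d, and the next highest was 32.8. Stromal markers (6 genes) followed a like course in SF, with a mean log2(GeTMM + 1) of 0.59 at 0 h and 0.15, 0.53, 1.56 and 3.18 at the 4 times, and all 6 were called higher at 10 d than at 0 h. In ISF their means were 0.05, 0.19, 0.74 and 0.55, and their part in the course of COLEC12 was not tested.

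In SF all 7 horses had less COLEC12 at 48 h than at 0 h (log2 change -0.95 ± 0.46), which did not pass in the main model (limma FDR = 0.0891). This fall passed with horse as a block (FDR = 0.00825). Without a term for horse it passed with a pseudocount of 0.1, only these groups fitted, library weights or Moon left out (FDR = 0.0211 to 0.0401). COLEC12 then rose from 48 to 96 h in SF (1.37, limma FDR = 0.0206, 7 of 7 horses) and in ISF (1.29, FDR = 0.0397, 7 of 7 horses). The ISF call was lost without the libraries labelled Dealings and Dreamer (FDR = 0.132) and without any single horse other than Moon (FDR = 0.0703 to 0.125). It was also lost with a pseudocount of 0.1, without the filter on low values, with only these groups fitted and by limma voom (FDR = 0.0513 to 0.0866). The SF call was lost without Catnip (FDR = 0.0657), Dreamer (0.053) or RimRun (0.0601). The 2 later steps in SF were 1.40 to 6 d (8 of 8 horses) and 1.19 to 10 d (7 of 7 horses). Both passed with horse as a block (limma FDR = 0.0114 and 0.016, against 0.0911 and 0.111 without it). The step to 6 d also passed with library weights (FDR = 0.0264).

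At 10 d COLEC12 was lower in ISF than in SF, with a log2 difference of -1.46 ± 0.48 (limma FDR = 0.0217, lower in 6 of 7 horses). The call was lost when Dealings (FDR = 0.0984), Lurie (0.0875) or RimRun (0.0883) was left out. The change of the fluid difference from 48 h to 10 d was -2.18 ± 0.68 (limma FDR = 0.057), and 0.00645 with horse as a block. The stromal markers moved in the same direction. All 6 of them (COL1A1, COL1A2, COL3A1, DCN, LUM and PDGFRB) were lower in ISF at 10 d, with a median log2 difference of -2.78, and their summed level was 0.42 to 4060 GeTMM in the SF libraries and 0.17 to 49.7 in the ISF libraries.

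Set beside COLEC12 by horse, Lurie's SF library had both the most COLEC12 (112.8 GeTMM) and the most stromal transcript (mean log2 of 8.58). Moon's SF library had 36.8 GeTMM of COLEC12 with a stromal mean of 0.09, and Moon's ISF library had 13.1 with a stromal mean of 2.91. The libraries with a stromal mean under 1 held between 5.99 and 44.7 GeTMM of COLEC12. Of the 5 endothelial markers 2 were tested, of which TEK was lower in ISF at 10 d. The summed level of the list was 1.95 to 7.48 in SF and 0.43 to 2.38 in ISF. Most of it was TEK alone (1.56 to 7.22 and 0.25 to 2.10). Medians in SF and ISF were 0.12 and 0.07 for CDH5, 0.03 and 0.21 for VWF, and 0 in both for KDR and CLDN5. The part of stromal or endothelial cells in the COLEC12 difference was not tested.

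**Figure D2:**
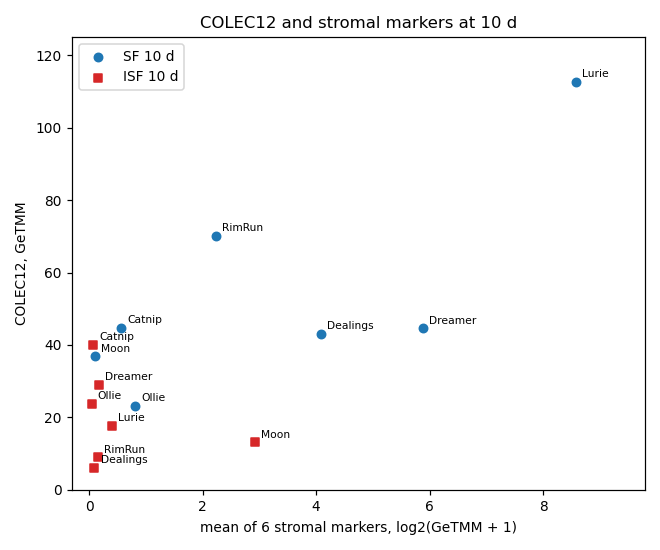
COLEC12 in GeTMM against the mean log2(GeTMM + 1) of 6 stromal markers in the 14 libraries at 10 d, labelled by horse (blue circles, SF; red squares, ISF). Lurie's SF library is the highest on both axes, and the ISF libraries except that of Moon have a stromal mean of at most 0.40.

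The class B receptors span the membrane at both ends of the chain and handle lipids. CD36 binds oxidized lipoproteins and long-chain fatty acids and is also found on platelets and erythroid precursors. At 0 h it had a median of 29.1 (15.6 to 43.7) GeTMM. In SF its medians were 456.9 (271.8 to 689.8), 898.4 (673.5 to 1327), 857.0 (155.8 to 1285) and 888.8 (753.5 to 1493) at the 4 times. In ISF they were 603.5 (455.8 to 883.2), 1175 (660.8 to 1453), 1689 (918.0 to 1940) and 1289 (932.7 to 1991). CD36 thus levelled off at 96 h in SF and reached its highest median at 6 d in ISF. Erythroid markers were near 0 in both fluids at 10 d. Megakaryocyte markers (4 of 5 found) went from a mean log2 of 2.07 at 0 h to 0.60 in SF and 0.43 in ISF at 10 d. The part of such cells in the level of CD36 was not tested. From 48 to 96 h CD36 rose by 0.79 in ISF (limma FDR = 0.019) and 0.95 in SF (FDR = 0.00254), both in 7 of 7 horses. The ISF call was lost without Dreamer (FDR = 0.0943) or Lurie (0.0547), or without the libraries labelled Dealings and Dreamer (0.0546).

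CD36 was higher in ISF than in SF at 6 d, by 1.00 ± 0.24 on the log2 scale (limma FDR = 0.00103, higher in 8 of 8 horses). Part of this size came with the SF library of Moon, which at 155.8 GeTMM lay far under the next lowest at 773.1. Without it the difference was 0.68 ± 0.19 (FDR = 0.00473), and in a fit of only these 2 groups it was not past the threshold (FDR = 0.0644). At 48 h, 96 h and 10 d the differences were 0.46, 0.29 and 0.42 (limma FDR = 0.433, 0.508 and 0.26), each toward ISF in all but 1 horse. Whether the difference at 6 d exceeded that at 96 h was tested and did not pass (0.71 ± 0.34, limma FDR = 0.781).

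SCARB1, the receptor for high-density lipoprotein through which cells exchange cholesterol esters, had the smallest increase over 0 h to 48 h among the 7 that were called higher. Its mean went from 42.1 ± 9.13 GeTMM at 0 h to 58.5 ± 14.4 in SF and 65.3 ± 9.84 in ISF at 48 h, and then to 147.2 ± 30.7 and 161.3 ± 24.6 at 10 d. The groups at 0 h and 48 h overlapped in both fluids. From 48 to 96 h SCARB1 rose by 1.07 ± 0.15 in SF (limma FDR = 5.27e-08) and 0.73 ± 0.15 in ISF (FDR = 0.000169), with no overlap between the times in either fluid. A further rise of 0.44 ± 0.14 in ISF from 96 h to 6 d lay at the threshold (FDR = 0.0483, 8 of 8 horses) and was lost when any single horse other than Moon was left out (FDR = 0.0537 to 0.147), and with a pseudocount of 0.1, without the filter, with only these groups fitted or with median-ratio scaling (FDR = 0.0513 to 0.075).

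No difference of SCARB1 between the fluids passed the test. The log2 difference lay between -0.16 and 0.18 at the 4 times (limma FDR = 0.535 to 0.86), and the 95% intervals together ran from -0.45 to 0.48.

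SCARB2, a class B protein that resides in the lysosomal membrane and carries glucocerebrosidase to the lysosome, was the one receptor lower in ISF from 96 h on. Before culture its median was 43.7 (38.8 to 56.4) GeTMM. In SF the medians were 289.6 (162.9 to 404.9), 492.2 (415.3 to 851.2), 626.9 (418.4 to 968.9) and 503.2 (391.4 to 754.5). In ISF they were 294.5 (218.6 to 491.4), 312.0 (209.9 to 500.5), 334.9 (269.0 to 435.8) and 320.8 (237.2 to 523.3). The ISF libraries thus kept the level of 48 h through 10 d, and those in SF stepped up at 96 h.

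This shows in the tests over time. From 48 to 96 h SCARB2 rose by 0.97 ± 0.18 in SF (limma FDR = 2.49e-05, 7 of 7 horses, ranges not overlapping), whereas the change in ISF was 0.09 ± 0.18 (FDR = 0.797). The difference between these changes was -0.88 ± 0.26 and did not pass over all genes (limma FDR = 0.374, and 0.0327 with library weights). Over 48 h to 10 d it was -0.78 ± 0.26 (FDR = 0.0825), and 0.0297 with horse as a block.

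The log2 difference of SCARB2 between ISF and SF was 0.16 ± 0.19 at 48 h (limma FDR = 0.76), -0.71 ± 0.18 at 96 h (FDR = 0.00365, lower in 8 of 8 horses), -0.93 ± 0.18 at 6 d (FDR = 3.24e-05, 8 of 8 horses) and -0.62 ± 0.19 at 10 d (FDR = 0.0123, 7 of 7 horses). Without the libraries labelled Dealings and Dreamer the value at 96 h was -0.71 (FDR = 0.0137), and without the SF library of Moon that at 6 d was -0.92 (FDR = 6.03e-05). The difference at 10 d rested in part on Dealings, without which it was -0.45 (FDR = 0.0985). The SF library of Dealings was the highest of its group at each of the 4 times, and the ISF library of that horse was the lowest at 10 d.

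**Figure D3:**
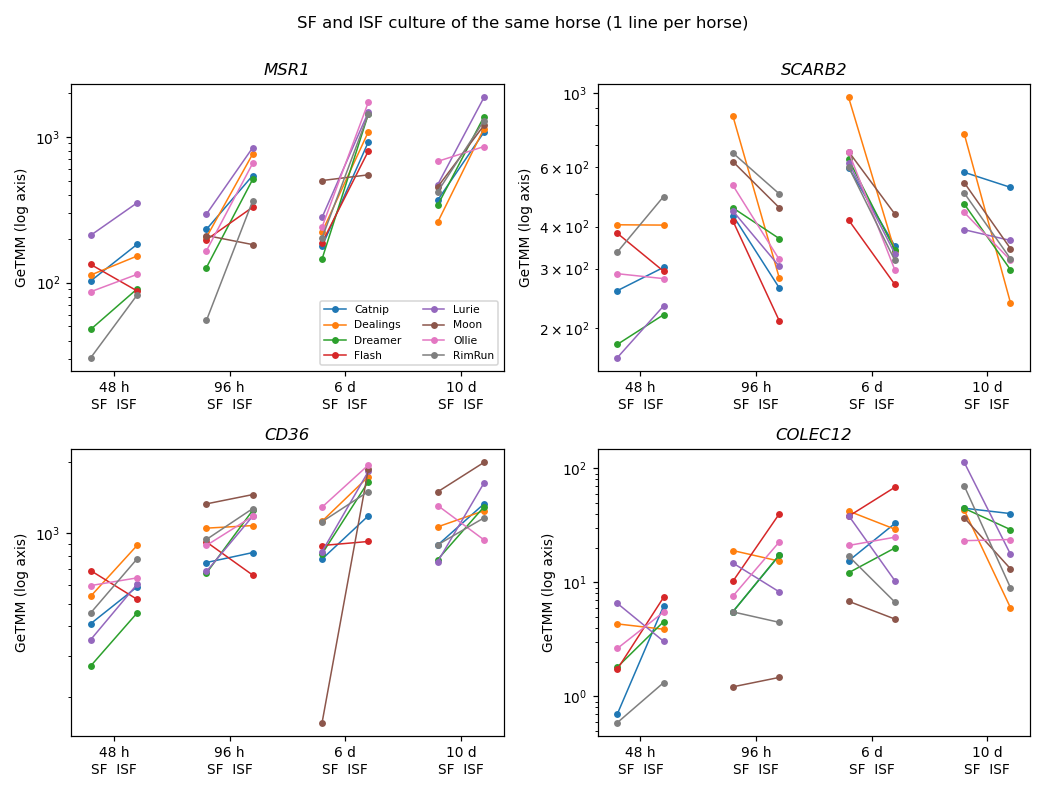
Level in GeTMM (log axis) of MSR1, SCARB2, CD36 and COLEC12 in the SF and ISF culture of the same horse at each time, with 1 line per horse. Lines of MSR1 slope up and lines of SCARB2 slope down in all horses at 6 and 10 d, and Moon's SF culture at 6 d (155.8 GeTMM) is the low point of CD36.

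CD163 takes up haptoglobin-hemoglobin complexes and is the classical surface marker of resident and anti-inflammatory macrophages. Its median was 88.0 (71.5 to 145.8) GeTMM at 0 h. In SF it was 511.5 (161.7 to 1043), 732.3 (159.7 to 1609), 727.6 (210.9 to 1707) and 544.9 (162.2 to 891.7) at the 4 times. In ISF it was 532.5 (165.9 to 1138), 1055 (370.3 to 2258), 1223 (417.0 to 2156) and 612.6 (468.4 to 1468). The group means of both fluids were highest at 6 d and lower at 10 d, and the ranges of the fluids overlapped at every time. Flash was the highest library of both fluids at 6 d (1707 and 2156) and had none at 10 d, so the lower means at 10 d include a change of horses.

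The log2 difference of CD163 between ISF and SF was 0.24, 0.67, 0.72 and 0.59 at the 4 times, and none passed (limma FDR = 0.89, 0.394, 0.235 and 0.427). At 6 d it was higher in ISF in 7 of 8 horses, and with horse as a block this difference passed (FDR = 0.036). Without the SF library of Moon the difference at 6 d was 0.49 (FDR = 0.43). From 48 to 96 h in ISF the rise of 0.94 ± 0.47 was found in 7 of 7 horses and did not pass (limma FDR = 0.164). This rise passed with the block (FDR = 0.00273) and, without a block, when Moon was left out (FDR = 0.0483).

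MRC1, the mannose receptor that clears glycoproteins with terminal mannose and is a marker of alternatively activated macrophages, rose steeply, with no difference between the fluids that passed the test. It went from a median of 4.83 (2.45 to 5.60) GeTMM at 0 h to 110.2 (43.9 to 215.1) in SF and 62.4 (25.3 to 154.3) in ISF at 48 h. At 6 d the medians were 195.7 (42.3 to 364.9) and 191.9 (79.2 to 345.0), and at 10 d 162.9 (69.7 to 233.5) and 117.9 (65.6 to 176.3). Its log2 difference between ISF and SF was -0.49, -0.16, 0.10 and -0.54 at the 4 times (limma FDR = 0.402 to 0.887), with 95% intervals that together ran from -1.38 to 0.89. At 10 d it was lower in ISF in 6 of 7 horses.

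CD68, a heavily glycosylated protein of the late endosome and lysosome and a general macrophage marker, was the most abundant receptor transcript of the cultures and the least variable. Its mean went from 80.94 ± 11.50 GeTMM at 0 h to 1927 ± 614.6 in SF and 1921 ± 342.8 in ISF at 48 h, and further to 3361 ± 593.1 and 3038 ± 490.2 at 96 h. At 10 d it was 3169 ± 450.7 in SF and 3780 ± 601.0 in ISF. The differences between the fluids were 0.03, -0.14, 0.04 and 0.25 on the log2 scale (limma FDR = 0.245 to 0.963), each with an SE of at most 0.15. In SF all 7 horses had less CD68 at 10 d than at 6 d, a change of -0.19 ± 0.14 that did not pass (FDR = 0.443).

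Counted over the receptors, 0 of 9 differed between the fluids at 48 h, where 1.68% of all genes tested were called (limma; also 0 of 9 at an unadjusted p under 0.05 and 0 by limma voom on recovered reads). At 96 h 2 of 9 differed (1 higher, 1 lower in ISF), against 10.5% of genes. At 6 d it was 3 of 9 (2 higher, 1 lower), against 30.2%, and at 10 d 3 of 9 (1 higher, 2 lower), against 20.8%. The receptors' share of calls at 6 d and 10 d was thus near that of all genes. Their median log2 difference was 0.24, 0.29, 0.10 and 0.25 at the 4 times, against -0.02, 0.00, 0.00 and -0.02 over all genes.

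**Figure D4:**
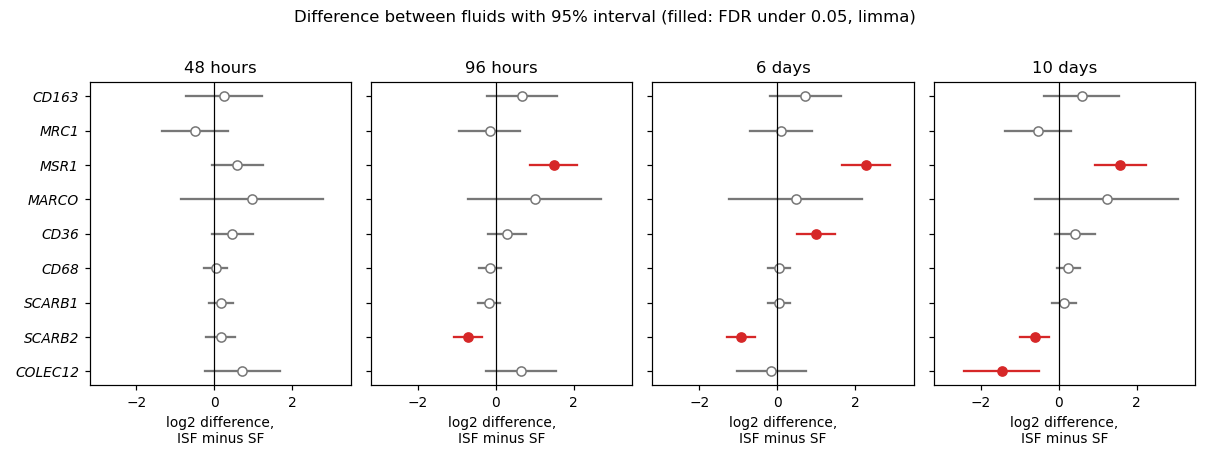
Log2 difference of each receptor between ISF and SF with its 95% interval at 48 h, 96 h, 6 d and 10 d (filled red, FDR under 0.05 in limma; open gray, not called). MSR1 lies right of 0 and SCARB2 left of 0 at the 3 later times, and the intervals of MARCO are the widest.

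Later steps within a fluid involved fewer receptors. From 48 to 96 h 5 of 9 rose in ISF (8.54% of genes called higher) and 6 of 9 in SF (11.5%), and with horse as a block 8 rose in either fluid. The block added CD163, MRC1 and MARCO in ISF, and MRC1 and MARCO in SF. From 96 h to 6 d 2 rose in ISF (MSR1 and SCARB1, 2.83% of genes called higher) and 0 in SF (2.05% called in either direction, with 1 at an unadjusted p under 0.05 and 0 by limma voom). From 6 to 10 d 0 rose or fell in ISF (10.5% of genes called in either direction, 0 receptors at an unadjusted p under 0.05) or SF (4.78%, 2 receptors at an unadjusted p under 0.05), and likewise 0 by limma voom. Over 0 h to 10 d all 8 receptors other than MARCO rose in ISF (36.1% of genes called higher) and in SF (34.7%).

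The test of a change in the fluid difference between times called 0 of the 9 receptors for each of the 4 pairs of times, where 0.0206% (48 to 96 h), 0.00% (96 h to 6 d), 0.226% (6 to 10 d) and 2.99% (48 h to 10 d) of genes were called. At an unadjusted p under 0.05 there were 2, 1, 1 and 3, and limma voom called 0.

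The groups of each receptor were ordered by level, and the steps between neighbouring group means that exceeded the larger of their SDs were counted, as a description with no test. MSR1 had 3 of 8, namely ISF at 6 d over ISF at 96 h, SF at 10 d over SF at 6 d, and SF at 48 h over 0 h. CD36, CD68, SCARB1 and SCARB2 had 2 each, CD163, MRC1 and MARCO had 1 each, which was the step from 0 h, and COLEC12 had 0. Such a step is not a call. The change of MSR1 in SF from 6 to 10 d (limma FDR = 0.10) and the difference of CD36 between the fluids at 48 h (FDR = 0.433) did not pass, though both steps exceeded the SD.

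The horses differed in some receptors far more than in others. The share of the variance within groups that lay between horses was 66.8% for CD163, 63.7% for MARCO and 56.3% for MRC1, compared with a median of 24.8% over all genes tested. It was 44.9% for COLEC12, 40.3% for SCARB1, 30.1% for MSR1 and 29.7% for SCARB2, and lay under that median for CD68 (18.1%) and CD36 (13.3%). CD163 and MARCO thereby ranked at the 98.8 and 98.3 percentile of all genes tested, as a description of these 8 animals.

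Catnip and Dealings each lay above the group mean of MARCO in 9 of 9 libraries and Ollie in 0, with mean deviations of 2.10, 1.41 and -1.99 on the log2 scale. For CD163, Flash was highest on average (0.98) and Moon lowest (-1.16), and Catnip lay above the group mean in all of its 9 libraries. MRC1 was highest in Flash (0.63) and lowest in RimRun (-0.91). At 96 h in ISF, where these 2 labels are in doubt, MARCO was 110.9 GeTMM in the library labelled Dealings and 710.4 in that labelled Dreamer. In MSR1, Lurie was the highest horse on average (0.64).

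**Figure D5:**
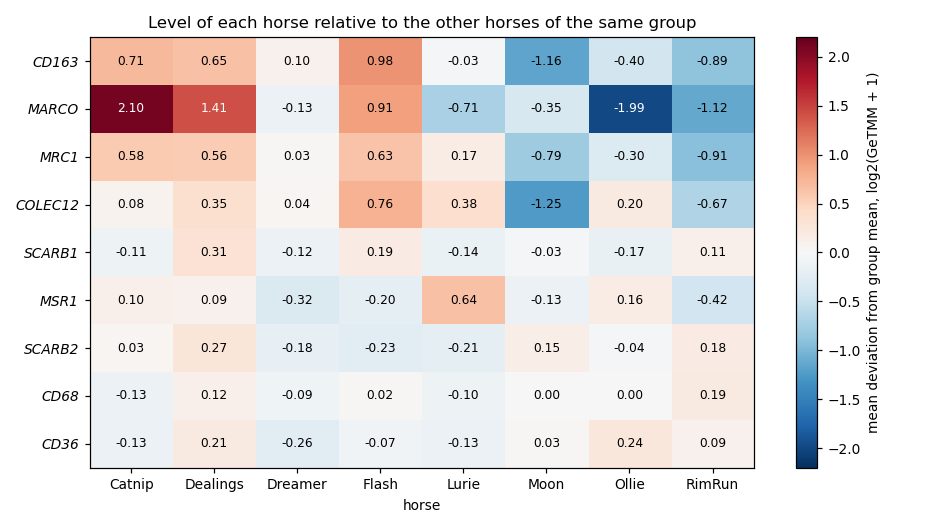
Mean deviation of each horse from the group means in log2(GeTMM + 1) over its 7 or 9 libraries, 0 h included, for the 9 receptors ordered by the share of variance between horses (red, above; blue, below the mean). Catnip, Dealings and Flash are the highest horses in each of CD163, MARCO and MRC1, whereas CD68 and CD36 deviate by at most 0.26 in any horse.

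Within groups, CD163 and MRC1 varied together (Pearson r = 0.92 over 68 libraries after removing group means). MARCO followed them less closely (0.65 with CD163 and 0.62 with MRC1), as did COLEC12 (0.63 and 0.60). CD68 varied with SCARB2 (0.65) and SCARB1 (0.58), and MSR1 had no correlation above 0.32 with any other receptor. These values are descriptions, since the libraries share 8 horses, and fluid and time were removed only as group means.

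The genes most alike to each receptor were taken by Pearson r of log2(GeTMM + 1) over all 68 libraries, those at 0 h included, as a description. STAB1, itself a scavenger receptor, and NRP1 were among the 3 closest genes of both CD163 (r = 0.90 each) and MRC1 (0.95 each), with GLIS3 (0.90) and RGL1 (0.95) as the remaining ones. MSR1 was closest to CD300H (0.97), PCOLCE2 (0.95) and GPR34 (0.95), and MARCO to CTSC (0.88), ARHGEF10L (0.87) and MERTK (0.87). The closest genes of CD68 were the lysosomal proteases CTSB (0.99), LGMN (0.98) and SCPEP1 (0.98). SCARB2 was closest to ACO1 (0.97) and the lysosomal protein PLD3 (0.96), and SCARB1 to PACS2, NUCB1 and the lysosomal enzyme NAGLU (0.95 each). CD36 was closest to ADAM9, NUAK1 and SLC39A1 (0.97 each), and COLEC12 to PTPN21 (0.82), MANBA (0.82, also lysosomal) and CSF1R (0.80).

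Macrophage markers were near equal in the fluids as a mean over genes. The mean difference of ISF over SF within horses was 0.16 ± 0.40 (SD, n = 7) at 48 h, 0.11 ± 0.32 (n = 8) at 96 h, 0.12 ± 0.59 (n = 8) at 6 d and -0.17 ± 0.41 (n = 7) at 10 d. The sum of the list ran from 11853 to 25914 GeTMM in ISF and from 21109 to 36382 in SF at 10 d. GPNMB (at 96 h and 6 d) and C1QB (at 10 d) were called lower in ISF, and CD14 (from 96 h on) higher. Taken relative to the mean of the markers, MSR1 was higher in ISF by 2.16 ± 0.90 at 6 d (8 of 8 horses) and 1.75 ± 0.70 at 10 d (7 of 7). SCARB2 was lower by that measure in 8 of 8 horses at 96 h (-0.83 ± 0.47) and at 6 d (-1.04 ± 0.62), and in 5 of 7 at 10 d (-0.45 ± 0.47).

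Markers of T cells, B cells and neutrophil precursors were lower in ISF late in culture. Of the erythroid markers, 0 of 5 differed at 6 d and 0 of 5 at 10 d. Of the megakaryocyte markers tested, 2 of 3 were lower in ISF at 6 d and 0 of 3 differed at 10 d. At 10 d the T cell markers were lower in 5 of 5 genes, with a summed level of 4.33 to 14.8 GeTMM in ISF and 23.5 to 198.7 in SF. B cell markers were lower in 4 of 4 genes tested (sums 1.42 to 10.2 and 6.10 to 139.3), and neutrophil precursor markers in 3 of 6 (AZU1, ELANE and LTF, sums 0.76 to 63.7 and 2.15 to 1648). At 6 d the counts of T cell, B cell and neutrophil precursor genes lower in ISF were 5 of 5, 4 of 4 and 5 of 6. Of all genes, 30.2% at 6 d and 20.8% at 10 d were called in either direction. The T cell, B cell and neutrophil precursor lists thus moved with the fluid beside MSR1 and SCARB2 at both times. Their part in those differences was not tested.

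Other scavenger receptors, taken from a list of 22 genes of which 17 entries were tested, were called higher in ISF in 0 cases at 48 h, 3 at 96 h, 6 at 6 d and 5 at 10 d, and lower in 0, 0, 0 and 1. Of all genes tested, 1.68%, 10.5%, 30.2% and 20.8% were called at these times, so that the count at 6 d, which holds both entries of CD14, was near the background. Their median log2 difference was 0.20, 0.29, 0.25 and 0.35, beside the medians of all genes given above. The very-low-density lipoprotein receptor VLDLR had 33.8 ± 18.2 GeTMM in ISF and 8.55 ± 5.52 in SF at 10 d (log2 difference 1.82 ± 0.30, limma FDR = 4.49e-06). CD14, the co-receptor for lipopolysaccharide, whose symbol is on 2 entries that are both called, had 8.30 ± 8.04 and 1.05 ± 0.68 at 6 d on the entry with the larger difference (1.81 ± 0.31, FDR = 5.80e-06, and 1.91 without the SF library of Moon, FDR = 2.82e-06). SCARF1 and SSC5D were also called higher at both 6 and 10 d, and LRP1 at 6 d. SCARA3 was the only member called lower, at 10 d (0.09 ± 0.19 in ISF, 5.12 ± 11.99 in SF, FDR = 0.0215, not called in 5 of 19 alternatives).

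Beside CD163, the genes that process hemoglobin, heme and iron (8 of 10 tested) moved in both directions, with a median log2 difference of 0.24, 0.15, -0.11 and 0.02 at the 4 times. They were called higher in 0, 2, 3 and 1 cases and lower in 0, 1, 2 and 1, beside 1.68%, 10.5%, 30.2% and 20.8% of all genes. Heme oxygenase HMOX1, which opens the heme ring, was higher in ISF at 96 h, 6 d and 10 d, with 1607 ± 1201 GeTMM in ISF and 567.6 ± 163.2 in SF at 6 d (1.26 ± 0.30, limma FDR = 0.000889, and 1.35 without the SF library of Moon, FDR = 0.000471). The heme transporter SLC48A1 was higher at 96 h and 6 d (1.01 ± 0.25 at 6 d, FDR = 0.00121, and 1.22 without that library, FDR = 4.85e-05). The iron exporter SLC40A1, ferroportin, was lower at the same 3 times as HMOX1 was higher, with 9.61 ± 5.19 in ISF and 61.9 ± 35.4 in SF at 10 d (-2.56 ± 0.51, FDR = 0.000134). BLVRB, biliverdin reductase B, was lower at 6 d (-0.71 ± 0.26, FDR = 0.0305, not called in 9 of 19 alternatives), and the call was lost without that library (-0.43, FDR = 0.14).

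Beside CD36 and SCARB1, the genes of lipid handling (14 tested) were called higher in ISF in 0, 2, 4 and 4 cases at the 4 times, and lower in 0, 1, 1 and 0, with a median log2 difference of 0.27, 0.12, 0.61 and 0.50. The share called at 6 d was again near the 30.2% of all genes. Lipoprotein lipase LPL had 648.2 ± 497.7 GeTMM in ISF and 107.5 ± 60.1 in SF at 6 d (2.37 ± 0.48, limma FDR = 0.000102, and 2.11 without the SF library of Moon, FDR = 0.000468). SOAT1, which esterifies cholesterol for storage, was higher at 6 d (177.0 ± 55.9 and 72.1 ± 30.5, 1.48 ± 0.25, FDR = 6.76e-06, and 1.07 without that library, FDR = 1.32e-06), as was PLIN2, a coat protein of lipid droplets. LIPA, the lysosomal acid lipase, was lower in ISF at 96 h (-1.34 ± 0.27, FDR = 0.000384, and -1.38 without the libraries labelled Dealings and Dreamer, FDR = 0.00146) and again at 6 d.

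Beside CD68 and SCARB2, 9 of 12 genes of the lysosomal membrane were tested, and 0 were called higher in ISF at any time (limma; the highest count of genes called lower was 2, at 10 d, beside 20.8% of all genes called). Their median log2 difference was -0.05, -0.14, -0.02 and -0.01. MCOLN1, a calcium channel of the lysosome, was lower at 6 d (55.2 ± 10.3 and 107.0 ± 35.1 GeTMM, -0.91 ± 0.17, FDR = 2.14e-05, and -0.79 without the SF library of Moon, FDR = 0.000112), and LAMP3, the lysosomal glycoprotein of mature dendritic cells, at 10 d (-1.72 ± 0.35, FDR = 0.000192). Of 12 transcription factors of macrophage genes, 0, 1, 4 and 1 were called higher and 0, 3, 1 and 1 lower (1.68%, 10.5%, 30.2% and 20.8% of all genes), with a median of -0.15, 0.09, 0.27 and -0.03. CEBPB was higher (1.12 ± 0.24, FDR = 0.000183) and IRF4 was lower (-1.07 ± 0.24, FDR = 0.00051) in ISF at 6 d. Without the SF library of Moon the values were 0.95 (FDR = 0.000935) and -1.10 (FDR = 0.000493). MAF was lower at 10 d (-1.10 ± 0.40, FDR = 0.0404, not called in 7 of 19 alternatives).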

How the data were processed

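RNA of 68 libraries was sequenced from BMNC of 8 horses. The authors trimmed the reads, aligned them with STAR 2.7.2a to EquCab 3.0 (per the labels) and counted them per gene. The deposited values are GeTMM, an RPKM-like unit in which the authors divided counts by gene length and scaled libraries with TMM factors in edgeR, with no logarithm and no batch correction described. Reads on genes were recovered from the steps of the values, and for all 19286 genes above 0 in at least 8 libraries every value was whole within 0.02 reads.

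Values were analysed as log2(GeTMM + 1) with limma 3.58.1 in R 4.3.3 (lmFit, eBayes with trend, two-sided), in a single model of 9 groups without a term for horse. The 14570 genes tested reached 0.5 GeTMM in 7 or more libraries. Calls are at an FDR under 0.05, adjusted by Benjamini and Hochberg over those genes. A fold change on this scale understates the change of low genes. The fluids were compared at 4 times, each fluid over 4 intervals and over 0 h to 10 d, and changes of the fluid difference as interactions. Fluid comparisons that share a group, and the intervals from 0 h, which share the 0 h libraries, are not independent. As 1 well per horse was sequenced in each group, p-values rest on the spread between libraries within groups, pooled over the 9 groups. Differences between horses and between wells are mixed in that spread, and libraries of the same horse were treated as independent.

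The same 8 horses gave all groups, so the libraries are paired by animal. Over 30 pairs the deviations from the group means of both cultures of a horse correlated with r of -0.22 to 0.56 (median 0.36), highest with the own horse in 26. Horse as a replicate block was run as an alternative, beside another pseudocount (0.1), no filter, a fit of only the groups compared, library weights, median-ratio scaling, limma voom on recovered reads, leaving out libraries or horses, and a minimum absolute log2 fold change of 1. The main test of the difference between fluids and the recovery of reads were tried on simulated data, drawn without an effect of horse. The other contrasts and the alternatives were not tried in this way. Summaries used Python 3.11.15 with numpy 2.4.6, pandas 2.3.3, scipy 1.17.1 and matplotlib 3.10.9.

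All 9 receptors are named in every comparison, with the 3 genes of highest Pearson correlation to each and, per pathway list, up to 2 called genes with the highest and 2 with the lowest log2 difference between the fluids. Further genes of the lists are named as called at that time. Some genes that these rules would name are not reported here. The receptors and lists were chosen with earlier results of these data known.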

Additional observations from a re-analysis of the deposited data

Results flagged for a closer look

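In 4 of 81 combinations of receptor and group, the highest or lowest library lay apart from the others beyond the 95% critical value of Dixon's ratio, where chance gives about 1 in 20. CD163 in SF at 10 d was 162.2 GeTMM in Moon against 465.8 in the next lowest horse. CD36 in SF at 6 d was 155.8 in Moon against 773.1 in the next, in the library whose GeTMM sum also stood apart. MRC1 at 0 h was 2.45 in Dreamer against 3.88 in the next. SCARB1 in SF at 6 d was 223.5 in Dealings against 142.9 in the next highest.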

How the results depend on the processing

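Over the 9 receptors and 18 comparisons, 19 alternatives gave 3078 values, of which 2987 kept their direction or lay on the same side of the threshold, 51 lost and 40 gained a call, and 0 called values reversed. In 67 cases the sign changed where neither value was called. The cause of the changed calls was not tested.

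Counts of receptors called moved by over 1.5 times as follows. With horse as a replicate block, with or without the ISF libraries labelled Dealings and Dreamer (96 h), the count was 8 in place of 5 for ISF from 48 to 96 h, 1 in place of 0 for SF from 96 h to 6 d and for SF from 6 to 10 d, and 2 in place of 0 for the change of the fluid difference from 48 h to 10 d. The block changed no call between the fluids but that of CD163 at 6 d. Without those 2 libraries and without a block, ISF from 48 to 96 h gave 3. Library weights gave 1 for SF from 96 h to 6 d, 1 for the change of the fluid difference from 48 to 96 h and 2 for that from 48 h to 10 d. The latter was 1 with only the compared groups fitted and 1 without Moon's SF library of 6 d. For ISF from 96 h to 6 d the count was 1 in place of 2 with a pseudocount of 0.1, without the filter, with only the compared groups fitted and with median-ratio scaling. Asking in addition for an absolute log2 fold change of 1, which by construction keeps fewer, gave 1 for ISF versus SF at 96 h, 2 for ISF from 48 to 96 h, 1 for ISF from 96 h to 6 d and 2 for SF from 48 to 96 h.

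Leaving out each horse in turn gave 1 to 3 for ISF versus SF at 10 d (1 without Dealings), 3 to 7 for ISF from 48 to 96 h, 1 to 2 for ISF from 96 h to 6 d and 0 to 1 for the change of the fluid difference from 48 h to 10 d (1 without Moon).

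With 7 or 8 horses per group the SE of a log2 difference was near 0.15 for CD68 and SCARB1 and near 0.9 for MARCO. Read numbers were lowest for MARCO at 0 h, with 0 to 39 per library, and MARCO and COLEC12 had as few as 20 and 33 reads in a library of SF at 48 h, so that depth limits these values most.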
